A study of Mus musculus with 56 samples.

Results

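The effect of adding semaglutide to low-dose zalfermin on the liver transcriptome was described by setting the combination group against the group given the same dose of zalfermin alone. These were 16 of the 56 mice of the series, chosen by their treatment labels, with 8 mice in each group. The series held 7 groups of 8 male C57BL/6J mice, and mRNA of a liver sample from each mouse was sequenced.

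The mice of both groups had eaten the AMLN diet (high fat with added fructose and cholesterol) for 36 weeks when dosing began, had been selected by a liver biopsy taken before that, and were housed singly after the biopsy. Both groups received zalfermin, a long-acting analog of FGF21, at 0.05 mg/kg by daily subcutaneous injection for 8 weeks. The combination group also received semaglutide, a GLP-1 receptor agonist, at 3 ug/kg in a separate injection. These doses come from the methods of the study, while the series record names the high doses for the combination and the sample labels give no dose for it. Where it bears on a result, values are also given for mice on the same diet given low-dose semaglutide (3 ug/kg) or vehicle (DIO-MASH vehicle) and for chow-fed mice given vehicle. The mice were males of 1 strain with disease caused by diet. In whole liver tissue, fewer cells of a type cannot be told apart from less RNA per cell.

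FGF21 signals through an FGF receptor paired with the co-receptor KLB, which hepatocytes and adipocytes carry, and it is known for lowering liver fat. GLP-1 receptors are scarce in liver tissue, so GLP-1 receptor agonists are thought to reach hepatocytes mainly through lower food intake and body weight. Many liver genes differ between male and female mice because males secrete growth hormone in pulses and females more steadily.

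Libraries held 7779307 to 16013740 reads on genes with zalfermin alone and 6850790 to 17810943 in the combination. Within each group no library was a copy of another, since chi-square per degree of freedom between its mice was at least 9.87 over 28 pairs. Pairs across groups were not checked. Some mice stood apart before any comparison. Combination mice 4, 5 and 6 held 14.8, 17.6 and 24.4 CPM (read counts scaled to library size, with TMM factors) of Arntl, which encodes the clock activator BMAL1, while the other 53 mice of the series held at most 5.15 CPM. The same mice held 25.98, 16.2 and 5.86 CPM of Dbp, a clock output gene, against 37.99 CPM in the lowest of the other 53 mice. The time of day at which each liver was taken is not in the labels, and its part in the results was not tested. Many of the counts and calls below are also given without these mice. That leaves a smaller group, so a call can be lost where the difference changed little. Zalfermin-alone mouse 1 held 85.9 CPM of the male-specific gene Hsd3b5, while the other 7 mice of its group held at most 1.36 CPM.

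Of 14105 genes with enough reads, 934 differed at an adjusted p below 0.05 (edgeR quasi-likelihood test fitted over all 56 mice, Benjamini-Hochberg adjustment), which was 6.62% of the genes tested. In the combination 461 were higher (3.27%) and 473 lower (3.35%). Most differences were modest, with a median of 1.33-fold among the higher genes and 1.51-fold among the lower ones. A difference beyond 2-fold was reached by 46 higher and 115 lower genes. Among 11821 genes averaging at least 1 CPM over the 16 mice, 133 (1.13%) had 8 combination values entirely above or below the 8 values of zalfermin alone, 70 above (0.592%) and 63 below (0.533%). The largest rises and falls named below were picked among called genes without overlap, so their lack of overlap follows from that choice. Without combination mice 4, 5 and 6, 669 genes were called, of which 517 were among the 934.

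The median log2 difference over all genes tested was -0.02. The lists of related genes below are read against that value and against the shares of all genes called, 3.27% higher and 3.35% lower.

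**Figure D1:**
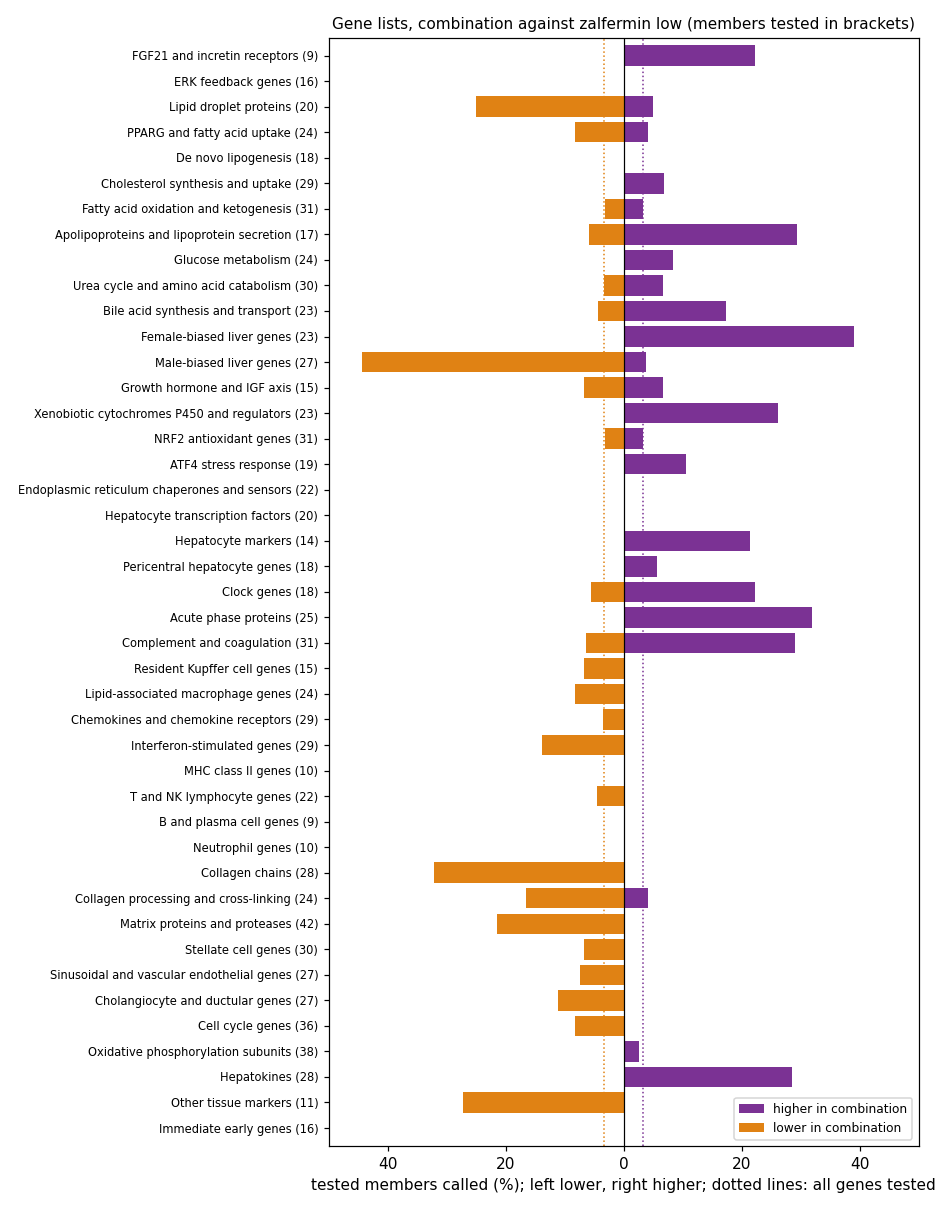
Share of the tested members of each gene list that were called higher or lower in the combination than with zalfermin alone, in percent, at an adjusted p below 0.05; purple bars to the right are higher, orange bars to the left lower, the number tested is in brackets and dotted lines mark 3.27% and 3.35% over all genes. Of 27 male-biased genes 12 were lower and of 23 female-biased genes 9 were higher.

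Genes that differ between the sexes moved in both directions. Of 23 tested genes known to be higher in female mouse liver, 9 were higher in the combination and 0 lower, and the median log2 difference was 0.83. Of 27 genes known to be higher in male liver, 12 were lower and 1 (Slc30a10) higher, with a median of -1.23. Without combination mice 4, 5 and 6, 10 female-biased genes were higher and 11 male-biased genes lower, and Slc30a10 did not pass (log2 difference 0.50, adjusted p = 0.525). All mice were male, so these were shifts within males.

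The 250 bases before the annotated start are printed for 3 of the female-biased genes, to show how alike the Cyp2b9 and Cyp2b13 windows are and which short motifs they hold. The windows come from RefSeq on GRCm38.p6 and run 5′ to 3′ on the strand of the gene, for Cyp2b9 (chr7:26173159-26173408, plus strand), Cyp2b13 (chr7:26061245-26061494, plus strand) and Slc22a26 (chr19:7802668-7802917, minus strand). Capitals mark the nuclear receptor half-site AGGTCA, 138 bases before the start, in the first pair, and TTCNNNGAA, a STAT5-type motif, 141 bases before the start, in Slc22a26.
Cyp2b9: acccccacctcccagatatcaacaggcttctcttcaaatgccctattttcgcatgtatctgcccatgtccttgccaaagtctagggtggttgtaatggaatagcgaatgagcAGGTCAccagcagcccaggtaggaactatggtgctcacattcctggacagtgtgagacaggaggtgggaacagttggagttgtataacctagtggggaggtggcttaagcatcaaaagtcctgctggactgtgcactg
Cyp2b13: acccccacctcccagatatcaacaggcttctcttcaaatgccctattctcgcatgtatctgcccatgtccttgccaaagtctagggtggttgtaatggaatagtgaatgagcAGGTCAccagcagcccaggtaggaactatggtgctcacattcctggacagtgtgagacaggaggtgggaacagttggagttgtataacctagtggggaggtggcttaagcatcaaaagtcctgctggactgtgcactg
Slc22a26: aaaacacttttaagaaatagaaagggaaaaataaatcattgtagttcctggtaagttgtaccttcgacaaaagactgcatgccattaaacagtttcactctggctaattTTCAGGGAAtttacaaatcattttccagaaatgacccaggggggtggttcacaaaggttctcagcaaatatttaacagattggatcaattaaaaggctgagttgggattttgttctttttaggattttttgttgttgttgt
The Cyp2b9 and Cyp2b13 windows were identical at 248 of 250 bases. Both strands were searched, and the motifs were chosen after the values were seen. Of 32851 promoter windows of this length, 4607 held AGGTCA and 2306 (7.02%) held TTCNNNGAA. Among tested genes with a window, TTCNNNGAA was in 7.88% of 368 higher genes, 5.37% of 354 lower genes and 6.09% of 10335 genes not called.

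Cyp2b9, a female-biased cytochrome P450 gene (ENSMUSG00000040660, chr7:26173411-26210661 on the plus strand of GRCm38), ranged over 3.05 to 24.6 CPM (median 8.57) with zalfermin alone and 51.8 to 351 CPM (median 96.7) in the combination. Every combination mouse was above every mouse given zalfermin alone, and the difference was 14.2-fold (log2 difference 3.83, SE 0.78, adjusted p = 0.00114). Its neighbour Cyp2b13 (chr7:26061497-26096197 on the plus strand) ranged over 0.339 to 1.39 CPM (median 1.08) and 2.17 to 21.5 CPM (median 5.303). These groups did not overlap either, although combination mouse 4 stood alone above 5.79 CPM. The Cyp2b13 difference was 7.26-fold (log2 difference 2.86, SE 0.56, adjusted p = 0.000723), and 2.36 on the log2 scale without combination mice 4, 5 and 6. Of the words of 31 bases in the Cyp2b9 transcript, 19.6% also occur in Cyp2b13, so some reads of the pair cannot be assigned with certainty.

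Slc22a26, of the organic anion transporter family, ranged over 1.45 to 6.57 CPM (median 2.51) with zalfermin alone and 10.6 to 33.7 CPM (median 18.3) in the combination. No mouse overlapped, and the difference was 7.098-fold (log2 difference 2.83, SE 0.48, adjusted p = 0.000138). Its relatives Slc22a27 (log2 difference 1.18, SE 0.30, adjusted p = 0.0104) and Slc22a29 (log2 difference 1.06, SE 0.28, adjusted p = 0.0114) did not overlap between groups either. Slc22a29 shares 40.1% of its words with Slc22a27, so their separate values are uncertain.

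Hao2, a peroxisomal 2-hydroxy acid oxidase gene, ranged over 0.367 to 1.45 CPM (median 0.736) with zalfermin alone and 1.45 to 6.94 CPM (median 3.26) in the combination. The highest mouse given zalfermin alone and the lowest combination mouse were nearly equal, but no mouse overlapped (log2 difference 2.35, SE 0.52, adjusted p = 0.00277). Cyp4a14, a fatty acid hydroxylase that PPAR alpha also induces, ranged over 414 to 717 CPM (median 534) and 902 to 2501 CPM (median 1428), again without overlap (log2 difference 1.56, SE 0.34, adjusted p = 0.00229). Cux2, a female-specific transcription factor gene (log2 difference 3.05, SE 0.77, adjusted p = 0.009004), and Cyp2a4, a steroid hydroxylase gene (log2 difference 2.10, SE 0.50, adjusted p = 0.00612), rose with overlapping groups.

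**Figure D2:**
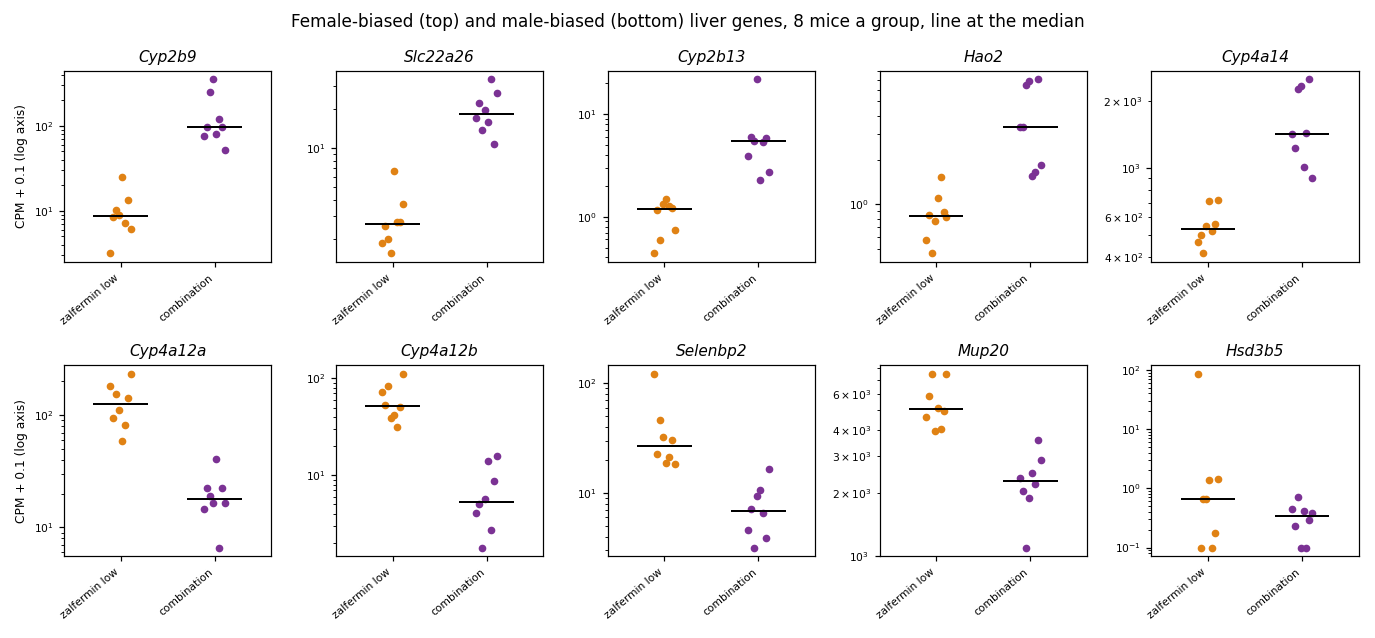
CPM plus 0.1 on a log axis for 5 female-biased genes (top) and 5 male-biased genes (bottom) in the 8 mice given zalfermin alone (orange) and the 8 given the combination (purple), with a line at the median. Only the Hsd3b5 panel shows overlap, with 1 zalfermin-alone mouse at 85.9 CPM.

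The male-biased pair Cyp4a12a and Cyp4a12b, whose enzymes hydroxylate arachidonic acid, fell. Cyp4a12a (chr4:115299046-115332815 on the plus strand) ranged over 58.7 to 234 CPM (median 126) with zalfermin alone and 6.51 to 40.98 CPM (median 17.8) in the combination. The groups did not overlap, and the combination stood at 0.1503 times the level of zalfermin alone (log2 difference -2.73, SE 0.39, adjusted p = 1.14e-05). Cyp4a12b ranged over 31.02 to 112 CPM (median 51.4) and 1.696 to 15.8 CPM (median 5.26), also without overlap (log2 difference -3.12, SE 0.45, adjusted p = 1.14e-05). Cyp4a12a shares 62.2% of its words with Cyp4a12b, so how reads were split between them is uncertain.

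Selenbp2, a selenium-binding protein gene of male liver, ranged over 18.1 to 122 CPM (median 26.5) with zalfermin alone and 3.08 to 16.5 CPM (median 6.801) in the combination. No combination mouse reached the other group (log2 difference -2.39, SE 0.45, adjusted p = 0.000491), though Selenbp2 shares 66.96% of its words with Selenbp1. Mup20, which encodes the male pheromone darcin, ranged over 3990 to 7495 CPM (median 5045) and 1095 to 3586 CPM (median 2292), without overlap (log2 difference -1.23, SE 0.27, adjusted p = 0.00235). The major urinary proteins come from many near-identical genes, and 64.5% of the Mup20 words occur elsewhere. C6, a terminal complement component that is higher in males, fell from 206 to 364 CPM to 92.4 to 190 CPM, also without overlap (log2 difference -0.90, SE 0.19, adjusted p = 0.001796).

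Part of the male-biased count rested on 1 mouse, whose values led to the choice of these genes. Hsd3b5 had medians of 0.554 CPM with zalfermin alone and 0.24 CPM in the combination, and its log2 difference of -5.55 was -0.98 (adjusted p = 0.836) without zalfermin-alone mouse 1. It did not pass without combination mice 4, 5 and 6 (-5.14, adjusted p = 0.133). Without zalfermin-alone mouse 1, Serpina1e went from -3.00 to -0.81 (adjusted p = 0.413) and Mup7 from -4.39 to -1.88 (adjusted p = 0.227). The number of lower male-biased genes was then 7, namely Cyp4a12a, Cyp4a12b, Selenbp2, C6, Mup20, Mup21 and Ugt2b38, and 2 were higher. Without it, the male-biased median minus that of all genes was -0.79, and 10 female-biased genes were higher. With runs of neighbouring sample numbers as a covariate, 7 male-biased genes were also lower.

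Of 15 genes of the growth hormone and IGF axis, the IGF-binding protein gene Igfbp2 (log2 difference 0.57, SE 0.16, adjusted p = 0.0159) was higher and Igfbp3 (log2 difference -0.90, SE 0.19, adjusted p = 0.00193) lower. Igfbp2 did not pass without combination mice 4, 5 and 6 (log2 difference 0.50, adjusted p = 0.0963), which left 0 higher and 1 lower. The growth hormone receptor gene Ghr (-0.09, adjusted p = 0.6999), its transducer Stat5b (-0.04, adjusted p = 0.863) and its target Igf1 (0.10, adjusted p = 0.702) did not pass the test on the log2 scale. Bcl6, a repressor of female-biased genes, had a log2 difference of -0.67 (adjusted p = 0.5102).

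Among the receptors, Klb ranged over 27.3 to 46.6 CPM (median 32.03) with zalfermin alone and 29.3 to 58.3 CPM (median 39.4) in the combination and did not pass the test (log2 difference 0.27, SE 0.14, adjusted p = 0.284). Fgfr4, the main FGF receptor of hepatocytes, ranged over 23.4 to 43.2 CPM (median 30.5) and 36.1 to 49.2 CPM (median 45.2). The groups overlapped, and the combination was higher (log2 difference 0.52, SE 0.12, adjusted p = 0.00385). Fgfr1 (-0.33, adjusted p = 0.423), Fgfr2 (-0.03, adjusted p = 0.952) and Fgfr3 (0.14, adjusted p = 0.799) did not pass the test on the log2 scale. Fgf21 itself ranged over 1.09 to 2.97 CPM (median 2.04) and 1.69 to 3.83 CPM (median 2.93) (log2 difference 0.47, SE 0.39, adjusted p = 0.532). None of 16 genes of ERK feedback, a readout of FGF receptor signalling, was called, and the 2 with the smallest p-values were Dusp5 (-0.60, adjusted p = 0.202) and Spred1 (0.21, adjusted p = 0.221) on the log2 scale.

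Glp1r, which encodes the GLP-1 receptor, had too few reads to test, with 1 read in all with zalfermin alone and 4 in the combination. The glucagon receptor gene Gcgr had medians of 172 and 178 CPM (log2 difference 0.05, SE 0.07, adjusted p = 0.722). Lepr, the leptin receptor gene, ranged over 11.1 to 44.6 CPM (median 25.5) with zalfermin alone and 29.1 to 144 CPM (median 85.3) in the combination. The groups overlapped, and the difference was 3.05-fold (log2 difference 1.61, SE 0.32, adjusted p = 0.000931). Prlr, the prolactin receptor gene, ranged over 32.3 to 99.9 CPM (median 60.6) and 103 to 192 CPM (median 138). No mouse overlapped (log2 difference 1.15, SE 0.29, adjusted p = 0.00823). Without combination mice 4, 5 and 6 the Prlr log2 difference was 1.03 (adjusted p = 0.0503).

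Of 20 genes for lipid droplet proteins, 5 were lower in the combination and 1 higher, with a median log2 difference of -0.12. Cidea, which promotes the growth of lipid droplets and is induced in steatotic liver, ranged over 10.5 to 45.4 CPM (median 21.8) with zalfermin alone and 0.1303 to 5.27 CPM (median 1.04) in the combination. Every combination mouse was below every mouse given zalfermin alone, and the combination stood at 0.0622 times the level of zalfermin alone (log2 difference -4.01, SE 0.46, adjusted p = 4.93e-08). Its relative Cidec ranged over 47.4 to 178 CPM (median 140) and 8.79 to 44.5 CPM (median 23.7), without overlap (log2 difference -2.35, SE 0.43, adjusted p = 0.000389). The lipase gene Lipe (-0.82), the droplet coat gene Plin4 (-1.46) and Fitm1 (-0.65) were lower on the log2 scale with overlapping groups. Plin4 did not pass without combination mice 4, 5 and 6 (-1.26, adjusted p = 0.0858). Pnpla3, a lipid droplet lipase gene that feeding induces, was higher (log2 difference 1.82, SE 0.46, adjusted p = 0.00948), but the difference was 0.70 (adjusted p = 0.468) without combination mice 4, 5 and 6.

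Among 24 PPARG and fatty acid uptake genes, Mogat1, which makes diacylglycerol, ranged over 4.99 to 10.5 CPM (median 7.67) with zalfermin alone and 1.002 to 7.07 CPM (median 2.38) in the combination. Fabp4, a fatty acid carrier of fat cells and macrophages, ranged over 9.64 to 30.5 CPM (median 19.4) and 4.703 to 10.8 CPM (median 8.87). Both overlapped between groups and were lower, Mogat1 by the larger margin (log2 differences -1.35, adjusted p = 0.000724, and -1.11, adjusted p = 0.00224). Slc27a5, which activates bile acids and fatty acids, was higher (log2 difference 0.39, SE 0.11, adjusted p = 0.0247), but not without combination mice 4, 5 and 6 (0.30, adjusted p = 0.177).

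None of 18 genes of de novo lipogenesis was called, and their median log2 difference was 0.18. The smallest p-values there were those of Fads2, a fatty acid desaturase gene (-0.40, adjusted p = 0.118), and Me1, which supplies NADPH (0.49, adjusted p = 0.218). Without combination mice 4, 5 and 6 the lipogenesis median minus that of all genes was -0.03. Of 31 genes of fatty acid oxidation and ketogenesis, Cyp4a14 was higher and Cpt1a, the gate of fatty acid entry into mitochondria, lower (log2 difference -0.43, SE 0.14, adjusted p = 0.0441). The Cpt1a difference was -0.24 (adjusted p = 0.37) without combination mice 4, 5 and 6. Of 29 genes of cholesterol synthesis and uptake, Pmvk of the mevalonate pathway was among those that were higher (log2 difference 0.82, SE 0.23, adjusted p = 0.0183). It did not pass without combination mice 4, 5 and 6 (0.58, adjusted p = 0.191). Positive differences were found for 24 of these 29 genes, against 6624 of 14105 genes tested.

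Whether the difference made by semaglutide depended on zalfermin was asked of each gene by setting combination minus zalfermin alone against low-dose semaglutide minus DIO-MASH vehicle. Cidea and Themis passed this test across all genes (0.0142% of 14105), while 952 genes had an unadjusted p below 0.05. Cidea had medians of 47.2 CPM with vehicle, 38.5 CPM with low-dose semaglutide, 21.8 CPM with zalfermin alone and 1.04 CPM in the combination. Its log2 difference for semaglutide was -0.42 without zalfermin and -4.01 with it, a gap of -3.59 (SE 0.58, adjusted p = 0.00127). Themis, a signalling gene of developing T cells, had medians of 32.05, 23.7, 18.6 and 1.53 CPM in the same order. Its log2 differences of -0.62 and -3.37 were -2.75 apart (SE 0.53, adjusted p = 0.0216), and its combination values did not overlap those of zalfermin alone. Leaving out any 1 of the 32 mice gave 1 to 7 genes. The count was 7 without low-dose semaglutide mouse 6, 4 without combination mouse 5 or 8, and 1 without vehicle mouse 7, zalfermin-alone mouse 2 or 3, low-dose semaglutide mouse 1 or 3, or combination mouse 1, 3 or 7.

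The next genes by p-value were Cyp4a12b, Cyp4a12a and Cyp39a1, which did not pass the adjustment. Their gaps between the 2 differences were -2.69 (SE 0.59), -2.39 (SE 0.53) and 0.90 (SE 0.20) on the log2 scale, each with an adjusted p of 0.107. Cyp39a1, an oxysterol hydroxylase of bile acid synthesis (chr17:43667425-43751431 on the plus strand), ranged over 23.5 to 36.8 CPM (median 27.4) with zalfermin alone and 45.5 to 78.4 CPM (median 69.5) in the combination. The groups did not overlap, and the difference was 2.38-fold (log2 difference 1.25, SE 0.14, adjusted p = 4.93e-08).

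**Figure D3:**
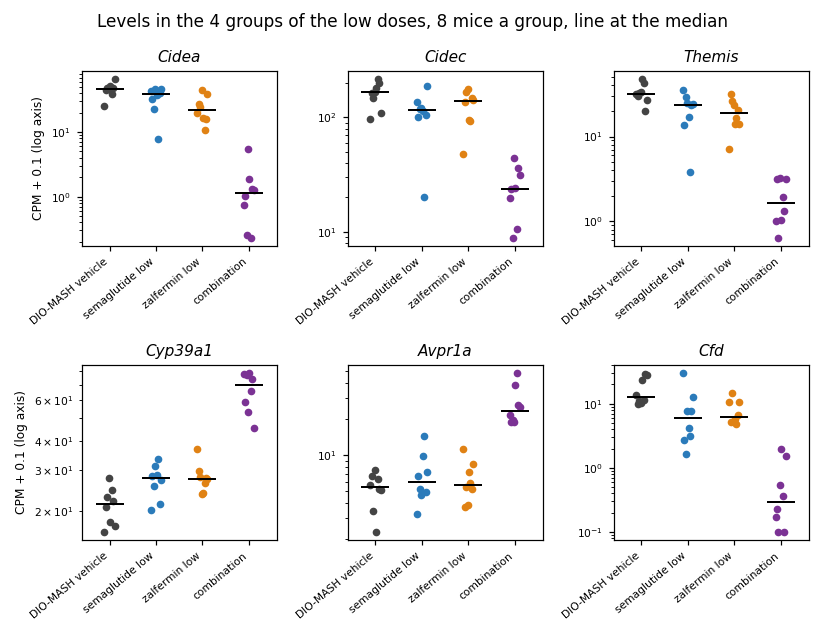
CPM plus 0.1 on a log axis for 6 genes in the 8 mice of each of 4 groups on the AMLN diet (DIO-MASH vehicle, semaglutide low, zalfermin low, combination), with a line at the median. The Cidea median is 47.2 CPM with vehicle and 1.04 CPM in the combination, with both single treatments in between.

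Several large changes were in genes outside these lists or known mainly from other tissues. Avpr1a, the vasopressin receptor gene of hepatocytes (chr10:122448499-122453452 on the plus strand), ranged over 3.61 to 11.1 CPM (median 5.55) with zalfermin alone and 18.7 to 48.1 CPM (median 23.1) in the combination. No mouse overlapped, and the difference was 4.26-fold (log2 difference 2.09, SE 0.28, adjusted p = 2.44e-06). Sult2a7, a sulfotransferase (1.56, adjusted p = 0.00347), Rdh16f2, a retinol dehydrogenase relative (1.37, adjusted p = 0.000566), Cyp2c68, a cytochrome P450 (0.99, adjusted p = 0.0006905), and Slc35g1, a membrane transporter (0.96, adjusted p = 4.56e-05), were also higher on the log2 scale without overlap. Cyp2c68 shares 53.6% of its words with Cyp2c40, so its own value is uncertain.

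Cfd, the complement factor adipsin that fat cells secrete, ranged over 4.701 to 14.6 CPM (median 6.16) with zalfermin alone and 0 to 1.86 CPM (median 0.195) in the combination. No mouse overlapped (log2 difference -4.11, SE 0.70, adjusted p = 0.000138, 834 reads against 40). Adipoq, which defines fat cells, gave 3 reads in all with zalfermin alone and 0 in the combination, and Lep gave 0 in both. Sdcbp2, which encodes syntenin-2, ranged over 1.76 to 10.7 CPM and 0 to 0.682 CPM, without overlap (log2 difference -4.35, SE 0.87, adjusted p = 0.001004, 585 reads against 26).

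Adgrv1, an adhesion receptor gene, ranged over 27.97 to 55.7 CPM (median 47.8) with zalfermin alone and 2.54 to 17.98 CPM (median 7.69) in the combination, with no overlap (log2 difference -2.29, SE 0.36, adjusted p = 5.39e-05). Kbtbd11 (-2.39, adjusted p = 0.000127), Cntnap1 (-1.92, adjusted p = 0.000138), Nrep (-1.90, adjusted p = 0.00385), Gnai1, an inhibitory G protein subunit gene (-1.56, adjusted p = 1.59e-05), and Mterf2, of the mitochondrial transcription termination factor family (-1.43, adjusted p = 0.00133), were lower on the log2 scale without overlap as well. Atf4, the effector of the integrated stress response, rose without overlap from 27.9 to 38.9 CPM (median 34.2) to 42.4 to 75.6 CPM (median 53.7) (log2 difference 0.76, SE 0.13, adjusted p = 0.000113). Of the 19 genes of its response list, 2 were higher, Atf4 itself and the amino acid transporter gene Slc3a2 (0.34, adjusted p = 0.0263), and 0 lower, with a list median of -0.15. Slc3a2 did not pass without combination mice 4, 5 and 6 (0.27, adjusted p = 0.1597), without zalfermin-alone mouse 1 (adjusted p = 0.0557) or without combination mouse 2 or 6, which left Atf4.

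Genes for proteins that hepatocytes secrete were among those that rose. Of 25 acute phase genes, 8 were higher and 0 lower, with a median log2 difference of 0.76. Serpina3m, a serine protease inhibitor gene, ranged over 206 to 304 CPM (median 237) with zalfermin alone and 335 to 768 CPM (median 457) in the combination. The groups did not overlap (log2 difference 0.96, SE 0.16, adjusted p = 7.04e-05), and neither did those of Itih4, an inter-alpha-trypsin inhibitor chain (log2 difference 0.87, SE 0.18, adjusted p = 0.00153). The fibrinogen chains Fga (0.78), Fgb (0.78) and Fgg (0.76), Saa3 (1.31), Itih3 (0.76) and Apcs (1.16) also rose on the log2 scale. Saa1 (0.91, adjusted p = 0.497), Saa2 (1.36, adjusted p = 0.349) and Lcn2 (0.77, adjusted p = 0.645), which respond strongly to inflammation, did not pass. Without combination mice 4, 5 and 6, 6 acute phase genes were higher, and the list median minus that of all genes was 0.23. Saa1, Saa2 and Lcn2 were then at 0.17, -0.07 and 0.13 on the log2 scale. Itih3 (0.64, adjusted p = 0.0965) and Apcs (0.95, adjusted p = 0.0921) then did not pass.

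Among 31 complement and coagulation genes, 9 were higher and 2, Cfd and C6, lower. F7, which starts coagulation, was higher (log2 difference 0.75, SE 0.14, adjusted p = 0.0004701), and so was Serpinc1, which encodes the inhibitor antithrombin (log2 difference 0.41, SE 0.09, adjusted p = 0.003798). Of 28 hepatokine genes, 8 were higher, among them Fgl1 (1.53), Inhba (1.39) and Enho (1.13) on the log2 scale. Without combination mice 4, 5 and 6 the higher genes numbered 3 for complement and coagulation and 2 for hepatokines. Fgl1 was then at 1.29 (adjusted p = 0.06399) and Inhba at 0.85 (adjusted p = 0.2397) on the log2 scale. The hepatokine count was 3 without combination mouse 6 and 5 without zalfermin-alone mouse 2.

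Of 17 apolipoprotein and lipoprotein genes, 5 were higher and 1 lower. Apom, an HDL apolipoprotein gene, ranged over 88.4 to 149 CPM (median 104) with zalfermin alone and 154 to 189 CPM (median 164) in the combination. The groups did not overlap (log2 difference 0.68, SE 0.12, adjusted p = 0.0001797). Neither did those of Tm6sf2, which helps to load lipid onto very low density lipoproteins (log2 difference 0.72, SE 0.16, adjusted p = 0.003801). Without combination mice 4, 5 and 6 the Tm6sf2 difference was 0.54 (adjusted p = 0.0735). Apoa4, which rises with liver fat in mice, was lower (log2 difference -0.82, SE 0.26, adjusted p = 0.0418). Of all 17, 2 were higher and 1 lower without those 3 mice.

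Of 23 drug-metabolising genes, 6 were higher, with the carboxylesterase gene Ces1c at the smallest p-value (log2 difference 0.64, SE 0.11, adjusted p = 0.000113). Of 14 hepatocyte markers, Alb (0.47), Asgr1 (0.38) and Serpina1a (0.46) were higher on the log2 scale. Serpina1a shares 64.6% of its words with Serpina1c, so its own value is uncertain. None of these 3 markers passed without combination mice 4, 5 and 6 (0.39, 0.28 and 0.34 in the same order), while Ces1c did (adjusted p = 0.001204). The drug-metabolising genes that were higher numbered 1 without combination mice 4, 5 and 6 and 3 without zalfermin-alone mouse 6, and the hepatocyte markers 5 without zalfermin-alone mouse 1 and 1 without combination mouse 5. The summed level of the hepatocyte markers ranged over 81181 to 123630 CPM (median 88564) with zalfermin alone and 97645 to 145600 CPM (median 126950) in the combination. Of 23 bile acid genes, 4 were higher and 1 lower, with the uptake transporter gene Slco1a4 among the higher (log2 difference 1.04, SE 0.22, adjusted p = 0.00164). Leaving out combination mice 4, 5 and 6 left 1 higher and 1 lower.

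Genes of scar matrix were among those that fell. Of 28 collagen chains 9 were lower and 0 higher, with a median log2 difference of -0.76. Col14a1, a fibril-associated collagen gene, ranged over 95.2 to 176 CPM (median 121) with zalfermin alone and 36.9 to 93.2 CPM (median 65.9) in the combination. All combination mice were below all others (log2 difference -0.96, SE 0.18, adjusted p = 0.000356). Col3a1, a main collagen of scar, ranged over 82.5 to 331 CPM (median 216) and 38.6 to 158 CPM (median 76.1), with overlap (log2 difference -1.43, SE 0.31, adjusted p = 0.00229). Col1a1 ranged over 46.6 to 234 CPM (median 152) and 11.03 to 119 CPM (median 57.3), also with overlap (log2 difference -1.35, SE 0.37, adjusted p = 0.0183). For scale, the Col3a1 median was 417 CPM with DIO-MASH vehicle, 190 CPM with low-dose semaglutide and 25.6 CPM on chow.

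Of 24 genes of collagen processing, the cross-linking enzymes Loxl2 (-1.09, adjusted p = 0.00381) and Lox (-1.35, adjusted p = 0.0326), the procollagen protease Adamts2 (-0.97, adjusted p = 0.0185) and Pcolce, which enhances procollagen cleavage (-0.70, adjusted p = 0.0166), were lower on the log2 scale, while the protease Bmp1 was higher (0.29, adjusted p = 0.0299). Bmp1 did not pass without combination mice 4, 5 and 6 (0.20, adjusted p = 0.251) or without any 1 of 9 of the 16 mice. Loxl2 shares 43.99% of its words with the annotated gene Gm21451, so its own value is uncertain. Of 42 other matrix genes 9 were lower and 0 higher, with a median of -0.53. Among them were Postn (-1.07, adjusted p = 0.00643), Tnc (-1.31, adjusted p = 0.00677), which mark healing tissue, the microfibril gene Fbn1 (-1.01, adjusted p = 0.0123) and the laminin chain Lamb1 (-0.75, adjusted p = 0.00876). Without combination mice 4, 5 and 6, 7 collagen chains and 7 other matrix genes were lower. Without zalfermin-alone mouse 1, 14 collagen chains and 7 processing genes were lower, and without zalfermin-alone mouse 4, 5 other matrix genes were. For Col3a1 the gap between the semaglutide differences with and without zalfermin was -0.39 (SE 0.43, adjusted p = 0.968).

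**Figure D4:**
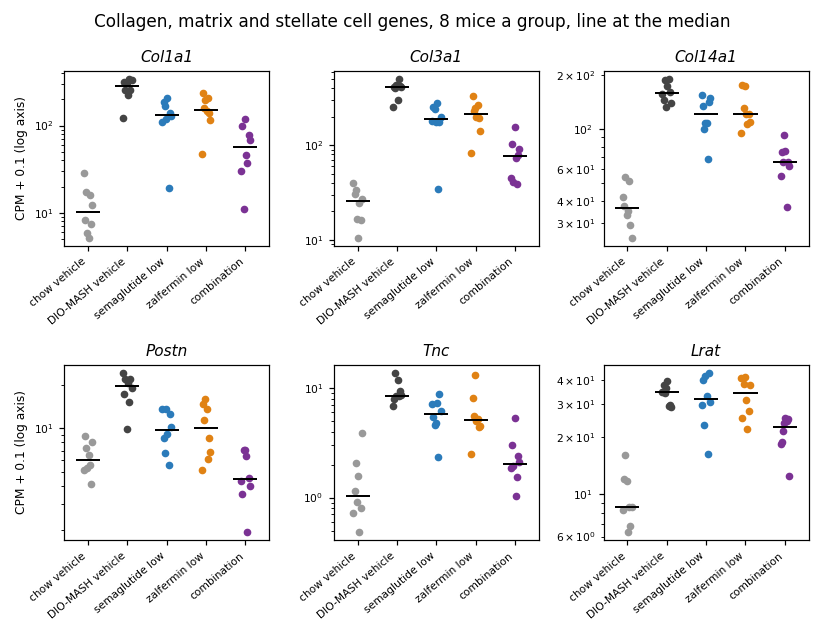
CPM plus 0.1 on a log axis for 5 matrix genes and the stellate cell gene Lrat in the 8 mice of each of 5 groups, with a line at the median. The Col3a1 median is 417 CPM with DIO-MASH vehicle, 216 CPM with zalfermin alone, 76.1 CPM in the combination and 25.6 CPM on chow.

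Markers of the cells that make or surround the scar were measured in the same libraries. Of 30 stellate cell genes, Lrat, which stores vitamin A (log2 difference -0.64, SE 0.19, adjusted p = 0.0265), and Tgfbr2 (log2 difference -0.62, SE 0.16, adjusted p = 0.00982) were lower, and 28 of 30 had negative differences. Their summed level ranged over 623 to 984 CPM (median 911) with zalfermin alone and 522 to 932 CPM (median 653) in the combination. The defining genes Des (-0.02, adjusted p = 0.983) and Acta2 (-0.10, adjusted p = 0.921) did not pass the test on the log2 scale. Of 27 endothelial genes, Plvap (-0.60) and Vwf (-0.68) were lower, and of 27 cholangiocyte and ductular genes, Krt23 (-1.37), Anxa2 (-1.41) and Anxa5 (-1.01) were. The summed cholangiocyte level ranged over 930 to 2050 CPM (median 1713) and 716 to 1438 CPM (median 1147). The part of cell numbers in the matrix result was not tested.

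Few immune genes were called. Of 24 genes of lipid-associated macrophages, Lgals1 (log2 difference -1.05, SE 0.20, adjusted p = 0.000574) and Anxa5 were lower. Of 15 resident Kupffer cell genes, C6 was lower, a gene also on the male-biased list. None of 10 MHC class II, 9 B and plasma cell or 10 neutrophil genes was called, and Themis was the call among 22 T and NK cell genes. Of those 22 T and NK cell genes, 14 had positive differences, and the list median was 0.09 on the log2 scale. In the 3 lists with no call, the members with the smallest p-values were H2-DMa (-0.44, adjusted p = 0.337) and H2-Eb1 (-0.51, adjusted p = 0.319), Jchain (0.88, adjusted p = 0.6004) and Ms4a1 (0.56, adjusted p = 0.673), and Elane (-0.81, adjusted p = 0.631) and Ngp (-2.20, adjusted p = 0.374), the last pair at 21 reads or fewer in each mouse. Of 29 interferon-stimulated genes, Ifit3 (-0.81), Ifit3b (-0.84), Usp18 (-0.82) and Ifih1 (-0.45) were lower on the log2 scale, and 26 of 29 had negative differences. Ifih1, an RNA sensor gene, did not overlap between 52.8 to 60.1 CPM with zalfermin alone and 36.5 to 45.3 CPM in the combination. Usp18 did not pass without combination mice 4, 5 and 6 (-0.62, adjusted p = 0.156). Ifit3 shares 61.8% of its words with Ifit3b, so these may be 1 signal. Of 36 cell cycle genes, the replication licensing genes Mcm2 (-1.01) and Mcm4 (-0.62) and, at 14 reads or fewer in each mouse, Cdkn3 (-2.13) were lower, and 32 of 36 had negative differences. The lower cell cycle genes numbered 10 without zalfermin-alone mouse 1, 9 without combination mouse 4, 1 without combination mouse 1 or 3, and 7 by DESeq2. Cdkn3 did not pass without combination mice 4, 5 and 6 (-2.08, adjusted p = 0.0926).

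Combination mice 4, 5 and 6 were singled out by clock gene values, so fewer clock calls without them follow from that choice. Of 18 tested, Arntl (2.52), Npas2 (2.77), Cry1 (1.44) and Nfil3 (0.79) were called higher and Bhlhe41 (-0.97) lower on the log2 scale. Arntl ranged over 1.002 to 2.09 CPM with zalfermin alone and 1.04 to 4.66 CPM in the other 5 combination mice. Without mice 4, 5 and 6 no clock gene was called, with log2 differences of 0.69 for Arntl (adjusted p = 0.447), 0.24 for Cry1 (adjusted p = 0.719) and -0.13 for Npas2 (adjusted p = 0.955). The Cry1 promoter window (chr10:85185055-85185304, minus strand, RefSeq, GRCm38.p6) is printed because it holds the E-box CACGTG (capitals), the letters that the clock activators are known to bind, 60 bases before the start. Of all windows 6.02% hold it. It was in 4.89% of 368 higher and 6.5% of 354 lower genes with a window, and in 8.23% of 10335 genes not called. Its part in the Cry1 difference was not tested.
Cry1: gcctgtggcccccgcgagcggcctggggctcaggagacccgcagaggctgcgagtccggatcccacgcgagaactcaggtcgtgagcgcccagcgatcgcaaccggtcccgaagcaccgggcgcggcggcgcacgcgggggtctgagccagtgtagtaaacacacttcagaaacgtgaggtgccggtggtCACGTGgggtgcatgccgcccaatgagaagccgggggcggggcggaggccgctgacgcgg

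**Figure D5:**
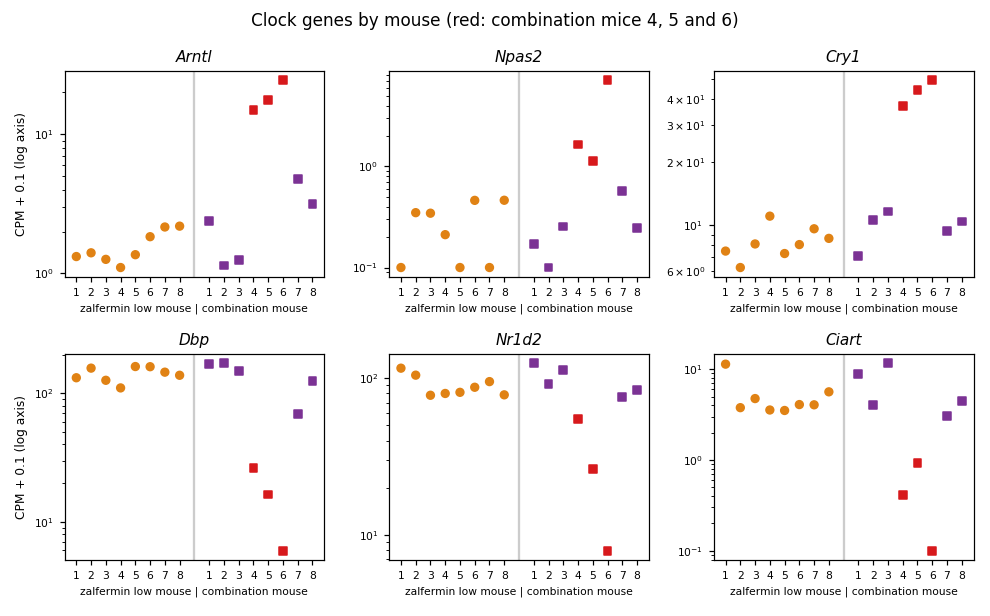
CPM plus 0.1 on a log axis for 6 clock genes in each mouse, with zalfermin alone at left and the combination at right in each panel. Combination mice 4, 5 and 6 (red) lie above all other mice shown for Arntl, Npas2 and Cry1 and below them for Dbp, Nr1d2 and Ciart.

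The genes that differed were then read in comparisons of mice outside both groups. Of the 461 higher genes, 434 (94.1%) were higher in chow than in DIO-MASH vehicle mice, and of the 473 lower genes 409 (86.5%) were lower, while 49.5% of all genes were higher. That comparison called 55.4% of all genes, and it called 371 of the 461 higher and 334 of the 473 lower genes in the same direction. Low-dose semaglutide called no gene against vehicle (0.0%, with 1222 at an unadjusted p below 0.05 by edgeR), and 412 of the 461 (89.4%) had positive and 404 of the 473 (85.4%) negative differences there. High-dose semaglutide called 2.43% of genes against vehicle, and the same counts were 408 (88.5%) and 394 (83.3%). High-dose zalfermin called 17.2%, and the counts were 396 (85.9%) and 420 (88.8%).

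The sex-biased and collagen lists were also read in comparisons with vehicle. The median log2 difference between chow and DIO-MASH vehicle was 0.04 for the female-biased and 0.95 for the male-biased list. Between the combination and zalfermin alone these were 0.83 and -1.23. Without zalfermin-alone mouse 1 the male-biased median minus that of all genes was -0.79 in that comparison. Against vehicle, the female-biased median was 0.32 with low-dose semaglutide, 0.42 with high-dose semaglutide and 1.06 with high-dose zalfermin. The male-biased medians there were 0.16, 0.30 and 0.15. For the collagen chains the chow median was -2.07. Cyp2b9 had medians of 4.27 CPM with vehicle, 11.4 CPM with low-dose semaglutide, 8.57 CPM with zalfermin alone, 96.7 CPM in the combination and 4.86 CPM on chow. Cyp4a12a had medians of 171, 129, 126, 17.8 and 173 CPM in the same order.

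Sample numbers given in the labels form separate series whose meaning is not stated. Of the 461 higher genes, 450 were higher in the combination within all 3 series that held both groups, and of the 473 lower genes, 466 were lower. These genes were called on the same mice, so the counts are no separate check of the calls. The series were not tested separately. No gene of the lists of endoplasmic reticulum chaperones, hepatocyte transcription factors and immediate early genes was called. The smallest p-values in these lists were those of the chaperone genes Hspa5 (0.46, adjusted p = 0.104) and Creld2 (0.66, adjusted p = 0.109), of Foxa2 (0.56, adjusted p = 0.0624) and Hnf4a (0.40, adjusted p = 0.0629), and of Egr2 (-0.87, adjusted p = 0.24) and Hspa1b (-0.61, adjusted p = 0.298). DESeq2 called 2 hepatocyte transcription factor genes, Foxa2 and Hnf4a, and none in the other lists without a call. By edgeR, Hnf4a also passed without combination mice 4, 5 and 6 (0.52, adjusted p = 0.0347) and without zalfermin-alone mouse 1 (0.498, adjusted p = 0.0133). At an unadjusted p below 0.05 by edgeR, there were 4 chaperone, 5 transcription factor, 0 immediate early, 2 ERK feedback, 2 lipogenesis, 0 MHC class II, 0 B and plasma cell and 0 neutrophil genes. The lists of glucose metabolism (Khk and Ppp1r3c higher), amino acid catabolism (Nags and Gnmt higher, Gpt2 lower), NRF2 targets (Gsta3 higher, Gpx4 lower), oxidative phosphorylation (Sdhd higher), pericentral genes (Notum higher) and chemokines (Cxcl14 lower) had few calls. Log2 differences of these 10 genes lay between -0.89 (Cxcl14) and 1.05 (Ppp1r3c). Gpx4 shares 66.4% of its words with Gpx4-ps2, so its own value is uncertain. With combination mice 4, 5 and 6 left out, Khk (adjusted p = 0.202), Ppp1r3c (0.273), Nags (0.0907), Gnmt (0.163), Gpt2 (0.219), Gsta3 (0.0677) and Cxcl14 (0.101) did not pass, and the Ppp1r3c difference was 0.63.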

How the data were processed

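mRNA of 56 mouse livers was sequenced from stranded libraries on an Illumina NextSeq 500. The authors aligned reads with STAR to GRCm38 and deposited whole-number read counts per gene. The submitters' processing notes also name Trim Galore 0.6.4 and Salmon 1.9.0, and the counting program and its strand setting are not given in the sources used here. Groups came from the treatment labels. The study left out 1 low-dose semaglutide mouse that the table does not mark, and all mice were used here.

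Genes with at least 5 reads in at least 3 mice were fitted with edgeR 4.0.16 (R 4.3.3; TMM, quasi-likelihood test, 7 groups, Benjamini-Hochberg adjustment over 14105 genes). The study used DESeq2, which was an alternative here (1.42.0), beside its size factors, other filters, number series or runs of neighbouring sample numbers as covariates, fits of fewer groups and left-out mice. CPM are read counts divided by TMM-scaled library sizes, in the usual CPM unit. On simulated data for this comparison (13960 genes, 100 changed at each size), edgeR recovered 55% of 1.5-fold and 82% of 2-fold changes. Depth was 5228187 to 20885786 reads per mouse. Each mouse gave 1 library, so p-values set the group difference against the spread between mice, estimated over all 7 groups. SE values were calculated back from the log2 difference and the F statistic of the test.

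The named genes were the 15 largest rises and 15 largest falls without overlap that averaged at least 1 CPM, up to 4 called members of each list (or the 2 with the smallest p where fewer than 2 passed), the receptors, and the 5 genes with the smallest p for the interaction. Others named were chosen after their values were seen. The comparison and the 43 lists were chosen with earlier results of these data known. Promoters matched 106 of 138 named genes. Words are stretches of 31 bases of a gene's transcript in GENCODE M21. Some genes that the rule selects are not reported here.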

Additional observations from a re-analysis of the deposited data

Results flagged for a closer look

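In each group of 8 mice, 40 named genes were checked for a mouse whose gap to the nearest other value was large against the range of the group (Dixon's 95% limit), 80 checks in all, and chance marks about 1 in 20. Combination mouse 4 held 21.5 CPM of Cyp2b13, while the other 7 held 2.17 to 5.79 CPM. Combination mouse 6 held 225 CPM of Gcgr, against 162 to 189 CPM in the others. Zalfermin-alone mouse 1 held 1.901 CPM of Slc22a27, against 5.14 to 11.4 CPM in the others.

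The effect of semaglutide differed with and without low-dose zalfermin for 2 genes by a test of the difference itself. The log2 differences were -3.59 units apart for Cidea and -2.75 for Themis.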

How the results depend on the processing

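The 934 called genes kept their direction under each of the other planned settings that tested them and with each single mouse left out (the stricter filter tested 920 of them). The calls numbered 765 (fit of the 2 groups) to 1275 (runs of neighbouring sample numbers as a covariate) under the alternatives. Leaving out single mice gave 647 to 1149 calls, 320 to 565 of them higher and 327 to 584 lower, with the fewest without zalfermin-alone mouse 2 and the most without zalfermin-alone mouse 1. The test of dependence on zalfermin called 14 genes by DESeq2 (5 higher, 9 lower), 1 with number series as a covariate (1 lower), 4 with runs (2 higher) and 4 in the fit of 4 groups (1 higher). With single mice left out it called 1 to 7, of which 0 to 2 were higher and 1 to 5 lower.

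Leaving out combination mice 4, 5 and 6 was chosen after seeing the data. It left 285 higher genes and 1 gene in the test of dependence (1 lower), and 932 of the 934 kept their sign. Among named genes it reversed Npas2 (-0.13). Of 111 called named genes, 100 were called under all 8 alternatives and 85 with each of the 16 mice left out in turn. Causes were not tested. Genes near the threshold, such as Vwf, Lrat, Mcm4 and Cpt1a, lost their call without any of several single mice. The labels carry no replicate numbers, and the fit with runs of neighbouring sample numbers as a block is the 1275 above. Depth limits genes with few reads, such as Sdcbp2 and Cdkn3.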
